A study of Mus musculus with 6 samples.

Results

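Aminoacyl-tRNA synthetases are the enzymes that join each amino acid to its transfer RNA, and their genes were followed in bEnd.3 cells, an immortalised mouse brain endothelial line. The genes were taken as every row of the deposited table that carries the KEGG term for aminoacyl-tRNA biosynthesis, which gave 44 of 30768 rows on 16 chromosomes. Of these, 19 encode cytosolic synthetase chains and 17 mitochondrial synthetases. Gars and Kars each encode the glycine or lysine enzyme of both compartments. The other 6 genes (Mtfmt, Pstk, Sepsecs, Gatb, Gatc and Qrsl1) encode enzymes that alter an amino acid already joined to its tRNA. The 3 control libraries came from cells with a control mimic, and the 3 miR-423-5p libraries from cells in which that microRNA was overexpressed with its mimic, a short synthetic RNA. The comparison asks which of these genes changed when the microRNA was raised. Neither the dose nor the time after the mimic is given in the sources used here. Nothing in the labels shows that libraries of 1 group were made from different cultures, so the p-values reflect only the spread among these libraries, which could be technical.

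Each synthetase recognises its own amino acid and a matching set of tRNAs, spends ATP to activate the amino acid and transfers it to the tRNA end, and several then remove wrongly joined amino acids. Nuclear genes encode both sets: the cytosolic enzymes serve ribosomes in the cytoplasm, and most mitochondria-specific enzymes are imported to serve the separate ribosomes of the organelle. In animal cells a group of cytosolic synthetases is held together with scaffold proteins in the multi-synthetase complex. When amino acids run short, the kinase Gcn2 senses uncharged tRNA and the transcription factor Atf4 is made, and many cytosolic synthetase genes are among its known targets.

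The mature microRNA is shown because its seed sets which messages it can pair with. It lies at chr11:77078122-77078144 on the minus strand (RefSeq, GRCm38.p6), is 23 bases long, and the capitals mark the seed, bases 2 to 8.
mmu-miR-423-5p: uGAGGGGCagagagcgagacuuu
The complement of the seed, GCCCCTC, was searched on the sense strand of the longest annotated 3' UTR (GENCODE M21, GRCm38) of each gene. It was present in 4 of 44 members (9.09%), against 2036 of 13919 tested genes with a 3' UTR (14.6%). An 8mer, the same match followed by A, was present in 1 member (2.27%) and in 588 of the tested genes (4.22%). The median 3' UTR was 1231 bases in the members and 1301 bases in the tested genes. The sites in the members are shown with the match in capitals, in the direction of the message.
Lars2, 8mer, chr9:123455974-123455981, plus strand: ctgctcccctgGCCCCTCAtgtaacctcag
Lars2, chr9:123453357-123453363, plus strand: tcctctttgcaGCCCCTCctgagaaggac
Iars2, chr1:185285924-185285930, minus strand: catttctcccgGCCCCTCcatttgtacat
Sars2, chr7:28744669-28744675, plus strand: gtagaaGCCCCTCttgttgccaga
Wars, chr12:108875714-108875720, minus strand: cacaggcagggGCCCCTCctccgaagcaa
A match is a description of the letters and not a measured site. The longest 3' UTR need not be that of the main transcript. The Sars2 and Wars matches lie in 3' UTRs of 299 and 2627 bases, yet far from the gene ends at chr7:28753871 and chr12:108860030. The 2 Lars2 matches are parted by an intron. Which transcripts these cells make was not tested. Of these 4 genes, Lars2, Iars2 and Sars2 encode mitochondrial enzymes and Wars the cytosolic tryptophan enzyme, and none was called in the comparison. Rars and Qars, the members that were called, have no match in their 3' UTR.

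Total counts ran from 63217696 to 78456344 per library, and the lowest count of any member in any library was 426. Levels of one gene across libraries are given as CPM, counts scaled to the library size as adjusted by TMM, and levels across genes as the deposited FPKM, which is per length. The TMM factors were 1.05 to 1.07 in the controls and 0.935 to 0.966 in the miR-423-5p libraries. With total counts in their place, the median log2 fold change of all tested genes moved from -0.02 to -0.18, so small directions depend on the scaling. All 8 endothelial markers were detected, and their summed CPM was 2048 to 2249 in the controls and 3336 to 3573 with miR-423-5p. Of the 8, 6 rose (75%, where 9.09% of all tested genes rose). The 6 fibroblast and pericyte markers summed to 20.1 to 28.6 CPM and 11.8 to 16.5 CPM, and 2 of the 6 fell (33.3%, where 7.21% of all tested genes fell). The 5 macrophage markers summed to 577 to 818 CPM and 706 to 986 CPM, most of it Cd68. Of the 3 of them that passed the filter none was called by edgeR, with 1 higher and 2 lower at an unadjusted p under 0.05. Control 3 stood apart in the other 4 macrophage markers, with a sum of 65.9 CPM against 1.66 and 1.01 CPM in controls 1 and 2 and 1.15 to 1.37 CPM with miR-423-5p. It also stood apart in the 5 neuron markers, with a sum of 61.4 CPM against 0.737 and 1.12 CPM in controls 1 and 2 and 0.575 to 1.04 CPM with miR-423-5p. The 4 astrocyte markers, most of whose sum was Aldh1l1, had 18.3 CPM in control 3. They had 10.4 and 10.6 CPM in controls 1 and 2 and 12.2 to 13.8 CPM with miR-423-5p. The part of these markers in the results on the synthetase genes was not tested, and values without control 3 are given where a named gene lost its call or a named difference moved by over 1.5 times. In such bulk libraries fewer cells of a type and less RNA per cell cannot be told apart.

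The synthetase genes changed little. By edgeR's quasi-likelihood test, adjusted over all 18103 tested genes at a threshold of 0.05, 2 of the 44 genes rose, 0 fell and 42 were not called. That is 4.55% of the members, where 16.3% of all tested genes were called, 9.09% as higher and 7.21% as lower. With TMM scaling all 44 genes changed by less than 1.5-fold, and the largest fitted difference was 1.37-fold, in Lars2. Other settings gave larger differences, such as a log2 fold change of -0.59 for Yars2 by limma on log2(FPKM + 0.1). At an unadjusted p under 0.05 there were 4 members higher and 7 lower, where 16.7% of all tested genes were higher and 16% lower. The direction of the calls rested on the scaling: with total counts 0 members rose and 9 fell (20.5%), where 19.0% of all tested genes were called, while DESeq2 had 2 that rose and 1 that fell and limma on log2(FPKM + 1) had 0 and 6. The median log2 fold change was 0.00 over the members and -0.02 over all tested genes. The SE of a member's log2 fold change ran from 0.0702 to 0.213 with a median of 0.0957, against a median of 0.169 over all tested genes, so the members were measured with less error than most genes. The groups' CPM did not overlap in 15 of the 44 members (34.1%), higher in 7 and lower in 8, against 38.4% of all tested genes, 18.8% higher and 19.6% lower. The share of members without overlap is thus near that of all genes.

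The 2 genes that rose are both cytosolic, Rars for arginine and Qars for glutamine. Rars (ENSMUSG00000018848, chr11:35808381-35834506, minus strand, GRCm38) had 467, 468 and 442 CPM in controls 1, 2 and 3 and 611, 567 and 595 CPM in the miR-423-5p libraries. Every miR-423-5p library was above every control, and the mean went from 459 ± 14.6 to 591 ± 22.4 CPM (SD, n = 3). Rars was 1.29-fold higher, a log2 fold change of 0.37 ± 0.073 (SE) with an edgeR adjusted p of 0.0164. Qars (ENSMUSG00000032604, chr9:108507706-108515941, plus strand) had 133, 133 and 129 CPM in the controls and 179, 152 and 169.5 CPM with miR-423-5p. The groups did not overlap, with library 2 the lowest of the miR-423-5p libraries, and the mean went from 132 ± 2.19 to 167 ± 13.5 CPM (SD, n = 3). Qars was 1.27-fold higher, with a log2 fold change of 0.34 ± 0.080 (SE) and an edgeR adjusted p of 0.0285. Neither gene overlaps another row of the table.

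Within each library, where no scaling between libraries enters, both genes also took a larger share of the synthetase counts. Rars took 9.53, 9.35 and 8.89% of the counts of the 38 synthetase genes in the controls and 11.3, 11.6 and 11.6% with miR-423-5p. Qars took 2.71, 2.67 and 2.60% in the controls and 3.31, 3.11 and 3.29% with miR-423-5p. Neither share overlapped between the groups. Both genes were chosen from these same counts, so their shares are not separate support for the rise. Among uncalled genes, the share of Sars was also higher without overlap, and those of Lars, Iars and Hars2 were lower without overlap. The count of Rars relative to Qars overlapped between the groups, at 3.52, 3.51 and 3.42 in the controls and 3.42, 3.72 and 3.51 with miR-423-5p. The calls depended on the setting. Scaled to total counts, Rars had a log2 fold change of 0.21 with an edgeR adjusted p of 0.0761 and Qars 0.18 with 0.133. Over 14 alternatives Rars was called in 6, with log2 fold changes of 0.18 to 0.41 and adjusted p of 0.000229 to 0.145, and Qars in 3, with 0.15 to 0.42 and 0.00492 to 0.217. Without control 3 the edgeR adjusted p was 0.0424 for Rars and 0.0741 for Qars. Rars missed the threshold without control 1 (0.0630), control 2 (0.0758), miR-423-5p library 1 (0.0557) or miR-423-5p library 3 (0.0613), and Qars without these too (0.0925, 0.102, 0.0795 and 0.0991). Without miR-423-5p library 2 both were called, at 0.0117 and 0.00796.

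**Figure D1:**
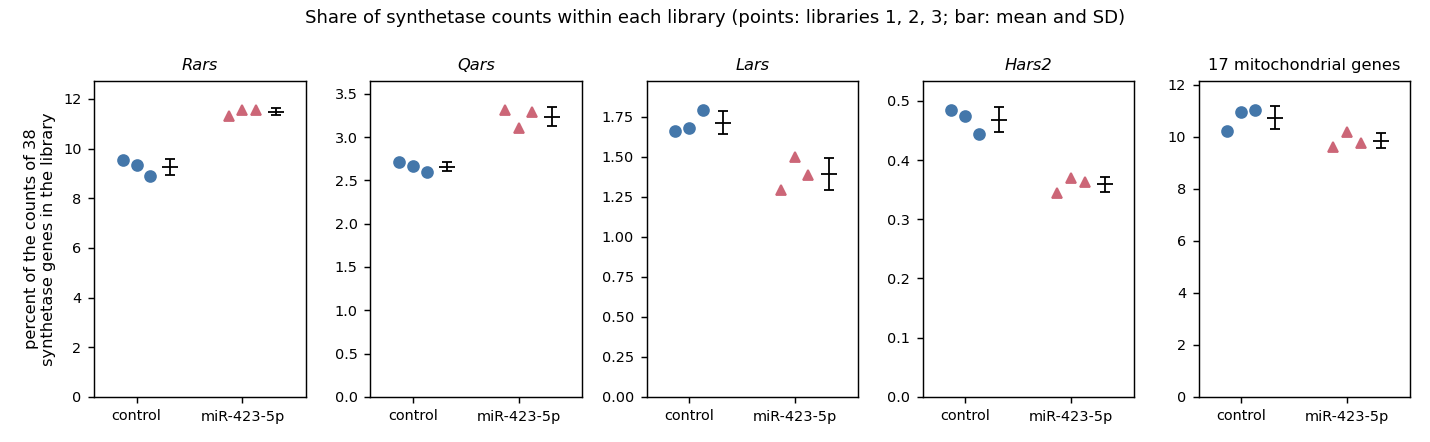
Share of the counts of the 38 synthetase genes that each named gene, or the mitochondrial enzymes together, took within each library, in percent. Points are libraries, bars the mean and SD of 3, and each vertical axis starts at 0; Rars rose from 8.89 to 9.53% in the controls to 11.3 to 11.6%, and the mitochondrial share lay just below that of the controls.

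In level, Rars was also the highest of the members. Its deposited FPKM was 140, 142 and 140.1 in the controls and 165, 159 and 154 with miR-423-5p, a control mean of 141 ± 1.23 FPKM (SD, n = 3). Its share of the summed FPKM of the 19 cytosolic genes was 18.6% in the controls and 22.4% with miR-423-5p. Vars, the valine enzyme, had 109.99, 115 and 109.7 FPKM in the controls and 115, 98.8 and 96.1 FPKM with miR-423-5p. Sars, the serine enzyme, had 72.0, 73.2 and 78.0 FPKM and 81.6, 71.2 and 76.8 FPKM. The groups overlapped in FPKM for both genes. By contrast Tarsl2, a second threonine enzyme, was the lowest cytosolic member at 3.06 FPKM in the controls, and 18 of the 19 cytosolic genes lay above the highest mitochondrial gene.

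**Figure D2:**
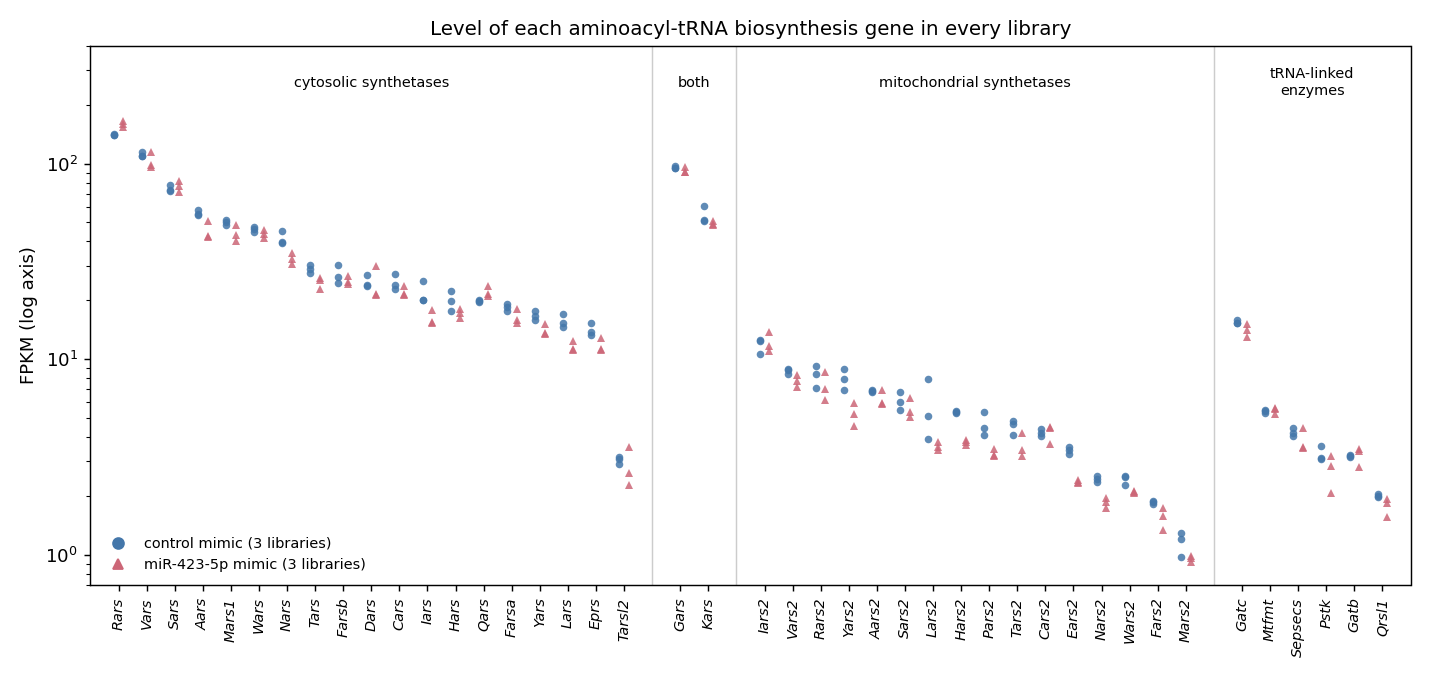
Deposited FPKM of 43 of the 44 genes in every library on a log axis, grouped by class, with circles for the 3 control libraries and triangles for the 3 miR-423-5p libraries. The 2 colours lie close together for most genes, Rars is highest at 141 FPKM in the controls, and Mars2 lowest at 1.15 FPKM.

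Among the 8 synthetases of the multi-synthetase complex, both genes called in this comparison rose and the other 6 were not called. That is 25% of the 8, where 16.3% of all tested genes were called and 9.09% as higher. With total-count scaling 0 of the 8 rose and 2 fell, where 19% of all tested genes were called. The 8 had a median log2 fold change of 0.02, since members at the other end were lower. Lars, the leucine enzyme of the complex (chr18:42202298-42262194), had 81.5, 84.1 and 89.2 CPM in the controls and 69.8, 73.3 and 71.3 CPM with miR-423-5p. The groups did not overlap, and the log2 fold change of -0.25 ± 0.071 (SE) just missed the threshold, at an edgeR adjusted p of 0.0513. With total-count scaling edgeR called Lars as lower, at an adjusted p of 0.0117. So did limma on log2(FPKM + 1), at 0.0223, and edgeR without miR-423-5p library 2, at 0.0411. Iars, the isoleucine enzyme (chr13:49682100-49734267), had 109, 108 and 129.6 CPM and 93.8, 104 and 96.9 CPM, all controls above all miR-423-5p libraries. Its log2 fold change was -0.24 ± 0.094 (SE) with an edgeR adjusted p of 0.128, and -0.14 with 0.317 without control 3. With total-count scaling edgeR called Iars as lower, at 0.0336, while limma on log2(FPKM + 1) did not call it, at 0.0525. The ratio of Rars to Lars counts, which needs no scaling, was 5.73, 5.56 and 4.96 in the controls and 8.75, 7.73 and 8.35 with miR-423-5p. Rars to Iars was 4.27, 4.34 and 3.41 in the controls and 6.52, 5.47 and 6.15 with miR-423-5p. These ratios pair the called gene with the lowest members of the complex, chosen after their values were seen. The summed FPKM of the 8 was 341 ± 14 in the controls and 339 ± 10.6 with miR-423-5p (SD, n = 3).

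The remaining complex synthetases, Eprs, Dars, Mars1 and Kars, had overlapping groups. Eprs, whose protein joins the glutamate and proline enzymes, had a log2 fold change of -0.09 ± 0.077 (SE). Dars, for aspartate, had 106, 107 and 115 CPM in the controls and 108, 144 and 110.2 CPM with miR-423-5p, where library 2 alone was high. Mars1, for methionine, was at 0.00 ± 0.093 (SE), and its row overlaps Ddit3 on the opposite strand, whose mean count was 33.3% of its own.

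The 3 scaffold genes of the complex were not called by edgeR with TMM scaling, although at an unadjusted p under 0.05 there was 1 higher and 1 lower. Aimp1, whose human protein binds the arginine and glutamine enzymes in a subcomplex, had 87.2, 85.5 and 81.3 CPM in the controls and 119, 91.8 and 108 CPM with miR-423-5p. The groups did not overlap, and the log2 fold change was 0.33 ± 0.103 (SE) with an edgeR adjusted p of 0.0677 and a DESeq2 adjusted p of 0.0320. Aimp2 had a log2 fold change of 0.11 ± 0.113 (SE), which turned to -0.05 with total-count scaling. Without miR-423-5p library 2 edgeR called Aimp1 and Aimp2 as higher, at adjusted p of 0.0110 and 0.0364. Eef1e1, which encodes the third scaffold protein, had 22.2, 24.0 and 29.5 CPM and 19.2, 19.9 and 19.8 CPM, with no overlap. Its log2 fold change was -0.36 ± 0.126 (SE) with an edgeR adjusted p of 0.0916, and -0.23 with 0.226 without control 3. With total-count scaling edgeR called Eef1e1 as lower, at 0.0315.

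Outside the complex, none of the 12 cytosolic synthetases was called by edgeR with TMM scaling or by DESeq2, with 1 higher and 0 lower at an unadjusted p under 0.05, and limma on log2(FPKM + 1) called 1, Nars, as lower. Their median log2 fold change was 0.03. Sars (chr3:108424865-108445209) had 383, 384 and 392 CPM in the controls and 482, 403 and 472 CPM with miR-423-5p. The groups did not overlap, and library 2 was again the lowest of the miR-423-5p libraries. Its log2 fold change was 0.23 ± 0.088 (SE) with an edgeR adjusted p of 0.121. Without miR-423-5p library 2, Sars, Rars, Qars and Cars2 rose and 2 members fell, Lars among them, 6 of the 44 members (13.6%) where 22.3% of all tested genes were called. That library was the lowest of the miR-423-5p libraries in 26 members and the highest in 11. Nars, for asparagine, had 177, 176 and 193 CPM and 153, 167 and 169 CPM, with no overlap and a log2 fold change of -0.16 ± 0.077 (SE), and with total-count scaling edgeR called it as lower at an adjusted p of 0.0334. The 2 enzymes of both compartments were not called by edgeR or DESeq2, with 0 at an unadjusted p under 0.05. Gars had 308, 311 and 289 CPM in the controls and 344, 311.5 and 337 CPM with miR-423-5p, a log2 fold change of 0.13 ± 0.076 (SE) that turned to -0.03 with total-count scaling. Kars was at 0.05 ± 0.085 (SE).

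**Figure D3:**
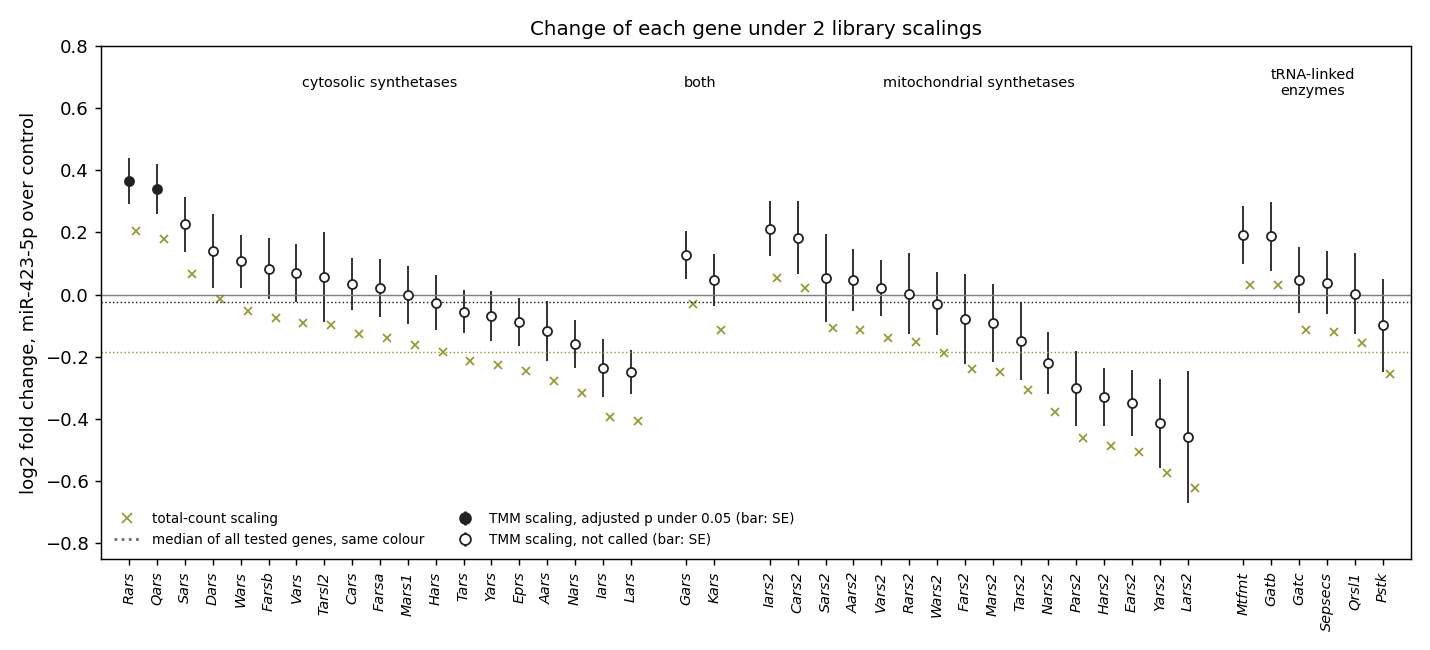
Log2 fold change of 43 of the 44 genes, miR-423-5p over control, by class; circles with SE bars use TMM scaling and are filled for Rars and Qars, the called genes, and crosses use total-count scaling. The dotted lines are the medians of all tested genes, -0.02 and -0.18, and the crosses sit below the circles by about that shift.

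The 17 mitochondrial synthetases were not called in either direction by edgeR with TMM scaling. With total-count scaling 6 of them fell, Ears2, Hars2 and Yars2 among them. With that scaling 19% of all tested genes were called in either direction, and their median log2 fold change was -0.18. At an unadjusted p under 0.05 there were 5 of the 17 lower, where 16% of all tested genes were, and 1 higher, and DESeq2 called 1, Hars2, as lower. The median log2 fold change was -0.09, against 0.02 in the cytosolic genes, and 11 of the 17 were below 0. Of the 17, 5 had all miR-423-5p libraries below all controls (29.4%, where 19.6% of all tested genes did), and Iars2 had them above. Hars2, for histidine (chr18:36783008-36792562), had 23.8, 23.7 and 22.1 CPM in the controls and 18.6, 18.1 and 18.7 CPM with miR-423-5p. Its log2 fold change of -0.33 ± 0.093 (SE) had an edgeR adjusted p of 0.0507 and a DESeq2 adjusted p of 0.0362. Its row overlaps Hars, its cytosolic counterpart on the opposite strand with 233% of its mean count, so reads of the pair may have been assigned to either.

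Ears2, the mitochondrial glutamate enzyme (chr7:122037213-122067070), had 19.0, 17.997 and 16.5 CPM in the controls and 14.3, 13.4 and 14.3 CPM with miR-423-5p, with no overlap. Its log2 fold change was -0.35 ± 0.106 (SE) with an edgeR adjusted p of 0.0626. Pars2, for proline, had 13.04, 13.99 and 16.2 CPM and 11.3, 11.8 and 11.98 CPM, at -0.30 ± 0.120 (SE). Yars2, for tyrosine, had 25.8, 28.5 and 21.4 CPM and 21.5, 18.2 and 17.1 CPM, which overlapped narrowly, at -0.41 ± 0.143 (SE) and an adjusted p of 0.0892. Nars2, for asparagine, had 16.95, 17.98 and 16.6 CPM and 14.8, 14.96 and 14.4 CPM, with no overlap, at -0.22 ± 0.099 (SE). These differences were small and each missed the threshold by edgeR with TMM scaling, so the lower values are given as levels and not as a fall. With total-count scaling edgeR called all of them as lower, at adjusted p of 0.0157 for Ears2, 0.0393 for Pars2, 0.0291 for Yars2 and 0.0370 for Nars2. By limma on log2(FPKM + 1), Ears2 (0.0257) and Yars2 (0.0318) were called, and Pars2 (0.0572) and Nars2 (0.0745) were not.

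Lars2, the mitochondrial leucine enzyme, has the 8mer seed match in its longest annotated 3' UTR. It had the largest fitted difference with TMM scaling and the widest error. Its CPM was 45.0, 58.1 and 85.4 in the controls and 43.8, 43.5 and 49.9 with miR-423-5p, so the groups overlapped and control 3 was 1.66 times the mean of controls 1 and 2. The log2 fold change was -0.46 ± 0.213 (SE) with an edgeR adjusted p of 0.18, and it was -0.17 without control 3, with an adjusted p of 0.449. None of the other 3 members with a seed match had all miR-423-5p libraries below the controls. Iars2, the highest mitochondrial gene, had 98.0, 112 and 109 CPM in the controls and 118, 134 and 117 CPM with miR-423-5p. Its groups did not overlap, and the log2 fold change was 0.21 ± 0.088 (SE) with an edgeR adjusted p of 0.14. Its row overlaps Rab3gap2 on the opposite strand, which had 89.3% of its mean count. Sars2 had 20.6, 23.0 and 17.8 CPM and 24.0, 18.5 and 21.1 CPM, and Wars had 169, 163 and 151 CPM and 182, 158 and 179 CPM, both with overlapping groups.

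In level, Iars2 had 10.7, 12.3 and 12.5 FPKM in the controls and 11.6, 13.7 and 10.98 FPKM with miR-423-5p. Vars2, for valine, followed with 8.44, 8.78 and 8.86 FPKM and 8.30, 7.23 and 7.75 FPKM. Rars2, for arginine, had 7.10, 8.38 and 9.22 FPKM and 7.07, 8.57 and 6.21 FPKM. Rars2 serves the same amino acid as Rars, but its groups overlapped and its log2 fold change was 0.00 ± 0.131 (SE). The mitochondrial genes together took 10.2, 10.95 and 11.05% of all synthetase counts in the controls and 9.63, 10.2 and 9.77% with miR-423-5p. The groups did not overlap, but the nearest libraries were 10.22 and 10.18%. Without Lars2 the shares were 9.39, 9.91 and 9.49% and 8.89, 9.37 and 8.89%, and the nearest libraries again nearly met.

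Cytosolic and mitochondrial enzymes of separate genes were compared for 15 amino acids, with Eprs serving in the glutamate and in the proline pair. The cytosolic gene had the higher control FPKM in 15 of 15 pairs, from 1.84 times for isoleucine to 43.8 times for methionine. Its log2 fold change lay above that of its mitochondrial partner in 12 of 15 pairs, the exceptions being cysteine, alanine and isoleucine. Within a library the FPKM ratio of the partners needs no scaling between libraries, and 3 pairs had a higher ratio with miR-423-5p without overlap: proline, histidine and tyrosine. For tyrosine, the Yars to Yars2 ratio was 2.00, 1.88 and 2.54 in the controls and 2.55, 2.57 and 2.98 with miR-423-5p, so that control 3 all but touched the other group. The row of Yars overlaps C77080 on the opposite strand, which had 133% of its mean count, and the rows of Hars and Hars2 overlap each other. The ratio was lower without overlap in 2 pairs. Iars to Iars2 was 1.88, 1.62 and 2.01 in the controls and 1.33, 1.30 and 1.40 with miR-423-5p, and Aars to Aars2 was 8.00, 8.32 and 8.01 and then 7.34, 7.20 and 7.19. The isoleucine pair therefore ran against most of the others. How often ratios of unrelated genes fail to overlap between the groups was not measured, so these counts of pairs have no share to be set against.

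**Figure D4:**
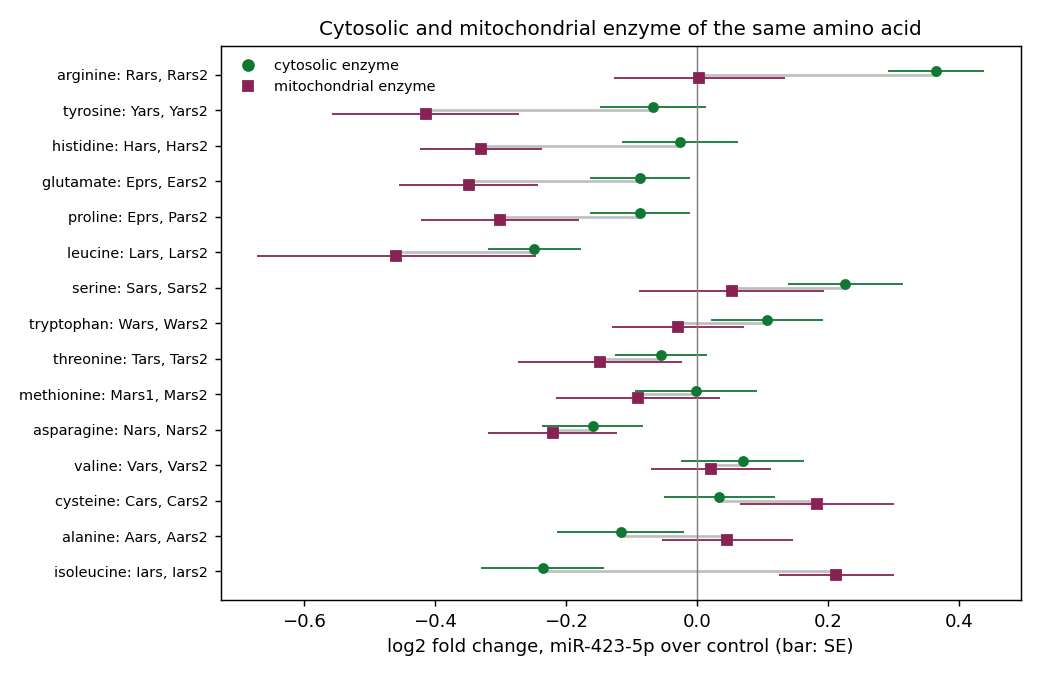
Log2 fold change with SE of the cytosolic (circles) and the mitochondrial enzyme (squares) of each of 15 amino acids, TMM scaling, 3 libraries a group. The cytosolic circle lies to the right in 12 of the 15 pairs, and isoleucine shows the opposite order, at -0.24 for Iars and 0.21 for Iars2.

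The 6 enzymes that alter charged tRNA were not called by edgeR or DESeq2, with 0 at an unadjusted p under 0.05, and their median log2 fold change was 0.04. Mtfmt, which formylates the mitochondrial initiator methionine, had 20.8, 20.3 and 19.0 CPM in the controls and 23.2, 22.65 and 22.8 CPM with miR-423-5p, with no overlap and a log2 fold change of 0.19 ± 0.094 (SE). Gatb, a subunit with Gatc and Qrsl1 of the mitochondrial amidotransferase that makes glutaminyl-tRNA, had 14.2, 14.2 and 13.3 CPM and 17.1, 16.01 and 14.5 CPM, at 0.19 ± 0.111 (SE). Gatc was at 0.05 and Qrsl1 at 0.00, and Pstk and Sepsecs, which act in turn to make selenocysteinyl-tRNA, were at -0.10 and 0.04, with overlapping groups in all 4. The row of Pstk overlaps Ikzf5 on the opposite strand, with 101% of its mean count.

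Lists of genes that work beside the synthetases were read from the same fit. They were chosen with earlier results of these data known and no set test was run, so their shares are a description only. Of 24 genes of the amino acid response, 11 fell and 0 rose, at a median log2 fold change of -0.39. That is 45.8% of the list, where 7.21% of all tested genes fell and 9.09% rose. At an unadjusted p under 0.05, 18 were lower and 0 higher, where 16% of all tested genes were lower and 16.7% higher. Sesn2, a leucine sensor that restrains mTORC1, had 57.1, 58.9 and 55.0 CPM in the controls and 28.3, 24.6 and 29.4 CPM with miR-423-5p, a log2 fold change of -1.05 ± 0.095 (SE) and an edgeR adjusted p of 0.00109. Chac1, which degrades glutathione, had 73.2, 73.0 and 77.5 CPM and 41.1, 33.3 and 39.9 CPM, at -0.97 ± 0.099 (SE) and an adjusted p of 0.00147. Slc7a5, the transporter of large neutral amino acids, had 136, 150.2 and 159 CPM and 89.1, 77.2 and 83.8 CPM, at -0.83 ± 0.091 (SE) and an adjusted p of 0.00188. Atf3, a stress-induced transcription factor, was at -0.60 ± 0.093 (SE) with an adjusted p of 0.00626. None of these 4 overlapped between the groups.

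Atf4 itself, named after its values were seen, had 492, 475 and 429 CPM in the controls and 342, 263 and 302 CPM with miR-423-5p, at -0.62 ± 0.112 (SE) and an edgeR adjusted p of 0.0110. Without control 1, control 2 or miR-423-5p library 3 that adjusted p was 0.0555, 0.0589 or 0.0611. Cebpb, in the same list, was low in control 3, at 16.9 CPM against 171 and 177 CPM in the other controls. With control 1 left out 5 of the 24 fell, with control 2 left out 5, with control 3 left out 9 and with miR-423-5p library 3 left out 6, and total-count scaling gave 18. The synthetases and this list share the 6 libraries, so they are set side by side and no relation between them was tested.

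The motif TGATGNAA, the core letters of the elements that Atf4 binds with a C/EBP partner, was searched on both strands from 250 bases before to 50 bases after each annotated start (RefSeq, GRCm38.p6). Of the 44 members, 32 had an entry and 5 of these (15.6%) held the motif, Gars, Iars, Tars and Yars among them. Of all 27025 genes with a promoter entry, 1219 (4.51%) held it, and in the amino acid response list 8 of 22 (36.4%) did. The matches before the start of Gars and Tars are shown to give the letters found, with the motif in capitals as read on the strand of the gene.
Gars, chr6:55037957-55037992, plus strand: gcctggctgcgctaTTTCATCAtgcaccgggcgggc
Tars, chr15:11399652-11399687, minus strand: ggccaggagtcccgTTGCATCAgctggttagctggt
In both the capitals are the motif on the opposite strand. None of the 5 genes was called: the log2 fold changes of those named were 0.13 ± 0.076 for Gars, -0.24 ± 0.094 for Iars, -0.05 ± 0.070 for Tars and -0.07 ± 0.080 for Yars (SE). Of the 8 response genes whose promoters hold the motif, Asns, Chac1, Atf3 and Pycr1 fell and Trib3, Slc7a11, Nupr1 and Vldlr were not called. In the whole response list 11 of 24 fell (45.8%), so the share among the 8 was near that of the list. Without control 3 Pycr1 was not called either, at an edgeR adjusted p of 0.115. The promoter of Qars held no match, and Rars has no entry in the promoter table.

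The elongation factors use the charged tRNA at the ribosome. Of 8 cytosolic elongation and termination factors, 3 rose and 0 fell, with a median log2 fold change of 0.24. That is 37.5% of the 8, where 9.09% of all tested genes rose. Eef1g, a subunit of the exchange factor of elongation factor 1, had 1059, 1101 and 1014 CPM in the controls and 1637, 1300.3 and 1450.1 CPM with miR-423-5p, at 0.47 ± 0.102 (SE) and an edgeR adjusted p of 0.0213. Eef1b2, of the same exchange factor, was at 0.45 ± 0.122 (SE) with an adjusted p of 0.0434, and Eef2, the translocase, at 0.35 ± 0.086 (SE) with 0.0337. Eef1a1, which carries the charged tRNA, was not called, at 0.29 ± 0.086 (SE) with 0.0573. With total-count scaling none of the 8 was called by edgeR, and leaving out control 1, control 2, miR-423-5p library 1 or miR-423-5p library 3 also left none. Without control 3, Eef1g, Eef2 and Eef1b2 were not called, at adjusted p of 0.0540, 0.0573 and 0.0997, and Eef1a1 was, at 0.0381. Of 10 mitochondrial translation factors, 1 rose (10%), near the 9.09% of all tested genes. It was Gfm1, an elongation factor, with 85.9, 83.8 and 85.2 CPM in the controls and 104, 103 and 99.8 CPM with miR-423-5p, at 0.27 ± 0.065 (SE) and an adjusted p of 0.0306. With total-count scaling Gfm1 was at 0.11 with an edgeR adjusted p of 0.286, and without any 1 library other than miR-423-5p library 2 it was not called. Another 5 genes act on wrongly charged tRNA or, for Ptrh2, on tRNA still joined to a peptide. These 5 were not called by edgeR or DESeq2, with 0 at an unadjusted p under 0.05, and limma on log2(FPKM + 1) called 1 of them as lower.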

How the data were processed

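Messenger RNA selected by its poly(A) tail was sequenced from 6 libraries of bEnd.3 cells, 3 a group, per the labels' protocols. Per the file headers, the authors deposited for each gene and library the read count, a whole number, and the FPKM, with KEGG and gene ontology terms. Cutadapt 1.9, HISAT2 2.2.1, StringTie 2.1.6, DESeq2, edgeR and the build GRCm38 are named without a role, per the submitters' processing notes. The scaling behind the FPKM, the annotation release and the strand setting of the counting are not stated there. Overlapping genes are therefore uncertain: 19 members overlap another row, and 9 of these overlap one with over 30% of their own mean count. Yars, Cars2 and Tarsl2 are among these 9.

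Members were the rows with the KEGG term, and their class was set by known localisation. The members and gene lists were chosen with earlier results of these data known. The deposited counts were tested on the group alone with edgeR 4.0.16 (R 4.3.3; filterByExpr, TMM, glmQLFTest) over 18103 genes with Benjamini-Hochberg adjustment. The SE is the log2 fold change over the square root of F. Library values are printed for called members, for up to 16 in order of p, for the 3 highest in FPKM of the cytosolic and mitochondrial classes, and for up to 4 genes of other lists by smallest p, with Atf4, Dars, Gars, Sars2, Wars and Cebpb added after their values were seen. By chi-square tests of their counts, all pairs of libraries of a group differed by more than sampling noise. Alternatives were DESeq2 1.42.0, DESeq2 size factors, total-count scaling, no filter, a replicate block, limma 3.58.1 on log2 of FPKM plus 1 or 0.1, and leaving out each library. Scripts ran on Python 3.11.15. The steps were tested on simulated data. The values of 1 member and a promoter stretch are not reported here.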

Additional observations from a re-analysis of the deposited data

How the results depend on the processing

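The number of calls changed with the library scaling and with the libraries used. Leaving out a library also makes its group smaller, and the part of this in the lost calls was not tested. Sesn2, Chac1, Slc7a5 and Atf3 were called as lower in every setting. Cytosolic synthetases that rose numbered 2, and 1 with no filter on low counts, 1 with the replicate block, 0 with total-count scaling and 0 in each of the 3 limma fits to FPKM. Leaving out 1 library gave 0 to 3. Cytosolic synthetases that fell numbered 0, and 3 with total-count scaling and, by limma, 3 at log2(FPKM + 0.1), 2 at log2(FPKM + 1) and 1 at the latter with no filter, with 0 to 1 on leaving out 1 library. Mitochondrial synthetases that fell numbered 0, and 1 by DESeq2, 6 with total-count scaling and, in the same order of limma fits, 5, 4 and 2, with 0 to 1 on leaving out 1 library, as for those that rose. Amino acid response genes that fell numbered 11, and 18 with total-count scaling, 18 and 17 by limma with 0.1 and 1 added, and 5 to 12 on leaving out 1 library. Calls over all genes were 2951, and 3443 with total-count scaling. They were 1852 without the filter, 1886 by limma without it and 942 to 4222 on leaving out 1 library. Gars (0.13) reversed to -0.0553 by limma with 0.1 added, -0.0548 with 1 added, with or without the filter, and -0.0315 with total-count scaling, and Aimp2 (0.11) to -0.0836, -0.0817 and -0.0508. The cause was not tested. The replicate numbers gave no sign of pairing: same-numbered libraries deviated with correlations of 0.07, -0.03 and 0.05. With 3 libraries a group these values cannot show that the samples are unpaired. With the block, 2411 genes were called in all, Rars had an adjusted p of 0.0403 and Qars 0.0555, and the amino acid response count stayed within 1.5 times. Depth limits the members little, since their lowest count was 426, and 3 libraries a group limit the test.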
